A study of Mus musculus with 4 samples.

Results

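The cells described here were tumor-infiltrating CD8+ T cells of mouse melanoma that held RNA of both Havcr2, which encodes the inhibitory receptor TIM-3, and Pdcd1, which encodes PD-1. They were chosen on measured values. UMIs (unique molecular identifiers) are the counted transcripts. A cell had to show 600 genes or more and less than 30% of its UMIs from mitochondrial genes, with at least 1 UMI each of Cd3e, of Cd8a and Cd8b1 together, of Pdcd1 and of Havcr2, and with 0 UMIs of Cd4, Foxp3 and Tcf7. Cells with 2 or more UMIs of Gzmf and Spp1, 10 or more of Hspa1a and Hspa1b, or 2 or more of Mki67 and Top2a were left out. The gates kept 365 of 10224 cells of the WT-labelled library and 461 of 9946 cells of the library labelled VISTA-KO, 826 of 20170 cells in all, and these are called members. They were set beside comparison cells, which passed every other gate with a Pdcd1 UMI and 0 Havcr2 UMIs, 1156 WT-labelled and 775 VISTA-KO-labelled cells.

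The study asked what loss of VISTA, an inhibitory receptor encoded by Vsir, does in T cells of tumors under immunotherapy. VISTA-KO mice were Vsir fl/fl CD4cre, in which the Cd4 promoter drives Cre in T cells, and WT mice were Vsir fl/fl littermates without Cre, all C57BL/6 mice of 6 to 8 weeks and of both sexes. All carried B16bl6 melanoma, a transplantable mouse tumor line, in the skin of the flank, and all received a mutated TRP2 peptide vaccine with CpG and R848 on day 3 and antibody 9H10 against CTLA-4 (100 µg) on days 4 and 8. Tumors were pooled within a genotype (5 to 6 mice per the methods, 6 to 8 tumors per the legend, which also gives isolation on day 18 after treatment), CD4+ and CD8+ T cells were sorted together, and each pool gave 1 gene expression library and 1 T cell receptor library. Each genotype was thus 1 pooled sample, the spread between mice is not known, no difference was tested, and all intervals are 95% intervals of counting error only.

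TIM-3 and PD-1 are receptors that restrain T cells, and both are induced by signals from the T cell receptor. T cells that keep meeting antigen in a tumor pass into a state called exhaustion, in which a Tcf7-expressing pool with the ability to renew itself gives rise to cells that have lost Tcf7. The latter carry several inhibitory receptors at once, TIM-3 among them, keep cytotoxic genes and are often called terminally exhausted.

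The WT-labelled library held 10337 barcodes and 72098984 UMIs, and the library labelled VISTA-KO 10085 barcodes and 59916814 UMIs. The members held 2927412 and 3593704 of these UMIs, which sets the precision of their levels. Of the filtered cells, 144 barcodes were in both libraries. In 72 of these both cells had a T cell receptor clonotype, and in 0 was it the same. Among them were 1 WT-labelled and 4 VISTA-KO-labelled members, and 0 barcodes were members in both.

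Vsir itself (chr10:60346851-60430294, GRCm38) was not lower in the library labelled VISTA-KO. Its level was 116 CPM (interval 104 to 129), where CPM is the usual scaling of a gene's summed UMIs to the same total in every population, in WT-labelled members and 119 (108 to 130) in VISTA-KO-labelled members. Over all cells it was 112 and 113 CPM, over CD8 cells 113 and 112, and over comparison cells 140 and 121. The sources used here do not say which exon is deleted, and the UMIs do not tell the deleted stretch from the rest of the transcript, so these levels check nothing about the labels. Genotypes are therefore given as labelled.

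The T cell receptor sequences were not used in choosing the members and name the largest clones among them. A clonotype is here defined by V gene and junction bases, taken for each cell from its best-covered alpha chain and its best-covered beta chain. The junctions of the 3 largest clonotypes among members of each library are shown because shares and levels differed between these clones. In lower case are the first and last codon, which are conserved in T cell receptors, and capitals mark the bases between them. As a whole the capital stretch differs from clone to clone, but parts of it are shared between clones.
WT clonotype 1 alpha (TRAV14-2, TRAJ26): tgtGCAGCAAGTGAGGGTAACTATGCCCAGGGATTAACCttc
WT clonotype 1 beta (TRBV10, TRBJ2-4): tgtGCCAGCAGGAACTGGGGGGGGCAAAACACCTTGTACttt
WT clonotype 2 alpha (TRAV14-3, TRAJ52): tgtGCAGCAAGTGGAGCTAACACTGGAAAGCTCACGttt
WT clonotype 2 beta (TRBV3, TRBJ2-7): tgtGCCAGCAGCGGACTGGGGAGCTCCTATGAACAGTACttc
WT clonotype 3 alpha (TRAV10N, TRAJ9): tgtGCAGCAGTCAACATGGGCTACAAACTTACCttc
WT clonotype 3 beta (TRBV12-2, TRBJ2-7): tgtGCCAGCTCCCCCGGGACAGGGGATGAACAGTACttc
VISTA-KO clonotype 1 alpha (TRAV16N, TRAJ17): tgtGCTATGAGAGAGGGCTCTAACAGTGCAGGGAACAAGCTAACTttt
VISTA-KO clonotype 1 beta (TRBV13-1, TRBJ2-7): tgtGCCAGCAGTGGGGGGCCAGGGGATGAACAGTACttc
VISTA-KO clonotype 2 alpha (TRAV12D-3, TRAJ45): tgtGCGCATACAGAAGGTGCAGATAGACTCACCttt
VISTA-KO clonotype 2 beta (TRBV13-1, TRBJ2-7): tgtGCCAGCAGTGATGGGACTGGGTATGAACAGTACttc
VISTA-KO clonotype 3 alpha (TRAV12-2, TRAJ32): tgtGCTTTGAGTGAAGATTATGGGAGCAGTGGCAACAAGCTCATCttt
VISTA-KO clonotype 3 beta (TRBV19, TRBJ1-2): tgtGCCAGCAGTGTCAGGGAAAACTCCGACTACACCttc

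WT clonotype 1 held 74 of the 299 members with a clonotype (24.7%), WT clonotype 2 held 18 and WT clonotype 3 held 15. WT clonotype 4 also held 15 and was placed after WT clonotype 3 by its CD8 cells, 76 against 1006. VISTA-KO clonotypes 1, 2 and 3 held 80, 66 and 24 of the 405 members with a clonotype there, the first 19.8% of them. The 3 largest together made up 35.8% of WT-labelled and 42.0% of VISTA-KO-labelled members with a clonotype. VISTA-KO clonotypes 1 and 2 used the same beta gene segments, TRBV13-1 and TRBJ2-7, with different bases between them and different alpha chains. Members of the 2 libraries, with 77 and 136 clonotypes, had 0 clonotypes and 0 beta junctions in common, and 2 alpha junctions. The same count was not made over all CD8 cells, so this cannot be read as particular to members.

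Members made up 7.20% of the 5068 WT-labelled CD8 cells (365 cells, interval 6.51 to 7.95) and 11.3% of the 4084 VISTA-KO-labelled CD8 cells (461 cells, 10.3 to 12.3). Of the CD8 cells with a Pdcd1 UMI they made up 12.8% (11.6 to 14.1) of 2853 and 21.2% (19.5 to 23.0) of 2170. The share was thus higher in the library labelled VISTA-KO over either denominator, with counting intervals that did not overlap. Here and below, such intervals treat cells as independent, though many members belonged to the same clone. They are therefore too narrow, and whether they overlap is no test between genotypes or populations. The gap was narrower without the largest clones. Without the 2 largest CD8 clonotypes of each library the shares were 7.36% (6.54 to 8.24) and 8.63% (7.73 to 9.58), with overlapping intervals. Whether the genotype or the expansion of single clones set the gap cannot be told apart with 1 pool per genotype.

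The share also varied with depth, and a gate on 1 UMI is met more often in a deep cell. In CD8 cells of 3000 to 5000 UMIs the share was 3.27% in the WT-labelled library and 4.97% in the library labelled VISTA-KO. In cells of 8000 to 12000 UMIs it was 16.6% and 23.0%. Below 3000 UMIs it was 3.61% and 3.91%, and from 12000 UMIs on 10.4% and 14.7%. The VISTA-KO-labelled share was the higher in all 5 depth classes, but only from 5000 to 8000 UMIs were the intervals apart, at 10.2% (8.59 to 12.0) and 15.3% (13.4 to 17.4). When every cell was first thinned to 3000 UMIs, which left out 692 and 435 shallower CD8 cells, 5.33% (248 of 4651) and 8.01% (303 of 3784) passed all gates.

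**Figure D1:**
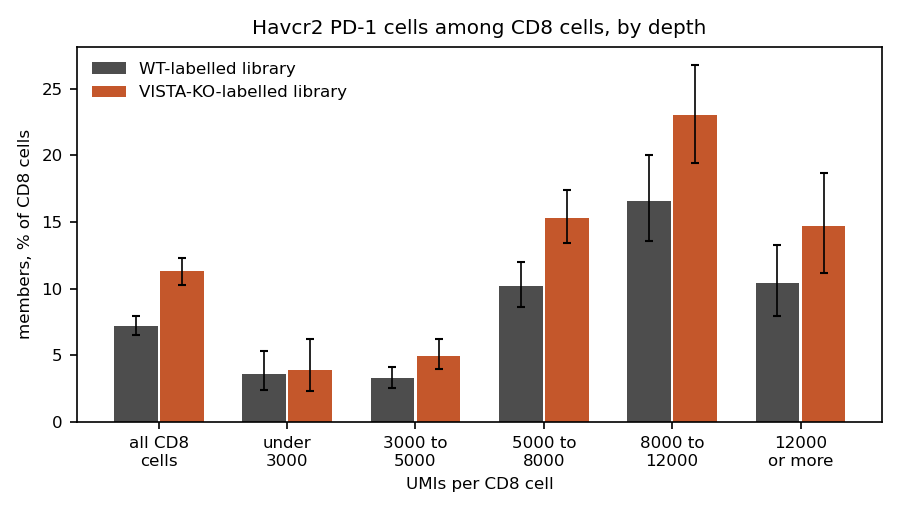
Members as a percentage of CD8 cells, for all CD8 cells and by UMIs per cell, in both libraries; bars start at 0 and error bars are 95% binomial intervals. The VISTA-KO-labelled bar is the higher in every class, and both libraries peak at 8000 to 12000 UMIs, at 16.6% and 23.0%.

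The gates divided a larger Havcr2 population. CD8 cells with both Pdcd1 and Havcr2 UMIs numbered 780 in the WT-labelled library and 807 in the library labelled VISTA-KO. A Tcf7 UMI was present in 104 and 78 of them. Of those with 0 Tcf7 UMIs, 243 and 223 were left out for Mki67 and Top2a, genes of dividing cells, 64 and 38 for the heat shock genes, and 63 and 40 for Gzmf and Spp1, with some cells failing several gates. A further 85 and 128 CD8 cells had Havcr2 UMIs and 0 Pdcd1 UMIs.

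Most members sat just inside the Havcr2 gate. Exactly 1 Havcr2 UMI was found in 218 of 365 WT-labelled and 238 of 461 VISTA-KO-labelled members, 2 UMIs in 73 and 113, and the highest was 11 in both libraries. Pdcd1 was at 1 UMI in 43 and 65 members. Cells that missed the set only by a single Tcf7 UMI numbered 27 and 38. At 1 UMI of Mki67 and Top2a, just inside, were 98 and 121 members, and just outside at 2 were 41 and 39 cells. For Gzmf and Spp1 these were 21 and 18 members inside at 1 UMI and 5 and 10 cells outside at 2. For the heat shock genes 3 and 3 members stood at 9 UMIs, and 3 and 0 cells at 10.

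Members were deeper than the comparison cells. The median was 6879 UMIs per cell in WT-labelled and 7091 in VISTA-KO-labelled members, against 4639.5 and 4796 in comparison cells. Median detected genes were 2438 and 2425 against 1895 and 1915. Thinned to 2000 UMIs, only 42.4% and 45.5% of the members would still show a Havcr2 UMI. Comparison cells therefore are cells in which Havcr2 was not detected at their depth, and may hold its RNA. As background, a Havcr2 UMI was found in 0.822% (3 of 365) and 2.44% (11 of 450) of CD8 cells that had a UMI of Ccr7, a homing receptor of naive and central memory T cells, and 0 Pdcd1 UMIs, a group chosen after the data were seen. In Siglech-expressing cells without Cd3e, at median depths of 8299 and 8712 UMIs, it was found in 4.14% (6 of 145) and 8.74% (9 of 103), or 1.10% and 1.79% thinned to 2000 UMIs.

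Of the 3 markers behind the name of these cells, Havcr2 and Pdcd1 were in the gates and Lag3 was the remaining one. Lag3 (chr6:124904359-124912434) encodes an inhibitory receptor that binds MHC class II. It was at 485 CPM (460 to 511) in WT-labelled members and 247 (234 to 260) in comparison cells. In the library labelled VISTA-KO it was at 458 CPM (436 to 481) and 253 (238 to 269). Lag3 was thus 1.96-fold and 1.81-fold higher in members. Here and below a fold is the plain ratio of 2 CPM values, while a log2 ratio is taken after adding 5 CPM to both, on which scale the 1.5-fold limit was set, so that for low genes the fold is the larger. Without the largest CD8 clonotype of each library the log2 ratio was 0.55 in the WT-labelled library, below the 1.5-fold used throughout, and 1.00 in the library labelled VISTA-KO. Lag3 was lower again in PD-1 cells with a Tcf7 UMI and 0 Havcr2 UMIs that passed the other gates, at 122 and 124 CPM.

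The share of cells with a Lag3 UMI gave the same order. It was 80.3% of WT-labelled members and 44.6% of comparison cells, and 82.9% and 51.6% in the library labelled VISTA-KO. After thinning to 2000 UMIs the shares were 54.3% against 28.8% and 51.6% against 31.7%, with 8 and 3 members and 49 and 41 comparison cells left out as shallower. The CD8 cells with Ccr7 and no Pdcd1, with median depths of 5157 and 4865.5 UMIs, gave 7.95% and 9.78% unthinned and 3.70% and 4.79% thinned, with 14 and 18 left out as shallower.

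Across all genes, 5745 reached 20 CPM in members or comparison cells of both libraries. Of these 58 (1.01%) were at least 1.5-fold higher in members in both libraries and 68 (1.18%) at least 1.5-fold lower, on the scale of log2(CPM + 5), which understates the change of low genes. These counts describe the cells that Havcr2 picked out and are not a test. The WT-labelled library alone passed 1.5-fold in 164 genes upward and 205 downward, and the library labelled VISTA-KO in 83 and 109, so that the shared genes were 35.4% and 33.2% of the former and 69.9% and 62.4% of the latter. The median log2 ratio over all genes was -0.03 and -0.01.

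Among 13 measured inhibitory receptors, 3 were higher in members in both libraries (Lag3, Cd200r1 and Cd244a), 0 were lower, and the median log2 ratio was 0.48 in WT-labelled and 0.46 in VISTA-KO-labelled cells. Cd200r1, the receptor for CD200, was at 48.8 against 19.3 CPM and at 48.1 against 23.2 CPM. Cd244a, which encodes the receptor 2B4, was 1.80-fold and 2.25-fold higher, with log2 ratios of 0.73 and 1.00, and of 0.37 and 1.00 without the largest clonotypes. Tigit, a receptor that competes with CD226 for its ligands, was at 525 against 363 CPM and 523 against 356 CPM, just under 1.5-fold in both libraries. Ctla4, the target of the antibody the mice received, was 1.68-fold higher in WT-labelled and 1.46-fold in VISTA-KO-labelled members, so that it passed in the former only, and the difference was not tested. Entpd1 (CD39) was 1.42-fold and 1.60-fold higher. Cd101, Cd160, Cd38 and Klrc1 stood within 1.5-fold in both libraries, at log2 ratios of 0.11 and -0.14, 0.42 and -0.12, 0.45 and 0.21, and -0.47 and 0.33.

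Of 7 measured partners and relatives of TIM-3, 0 passed 1.5-fold in either direction in both libraries, with median log2 ratios of 0.01 and -0.10. Lgals9, which encodes the ligand galectin-9, was at 162 against 194 CPM and 194 against 208 CPM, and Hmgb1 was at log2 ratios of 0.10 and 0.05. Bag6, a binding partner of the TIM-3 tail, was at 0.04 and 0.13, and transcripts of the ligand Ceacam1 were at 0 UMIs in members of both libraries. Of 9 measured genes of the PD-1 pathway, Cd274, which encodes the ligand PD-L1, was lower in members (29.0 against 48.7 CPM and 38.1 against 70.6 CPM) and 0 were higher. Its log2 ratios of -0.66 and -0.81 became -0.49 and -0.64 with 20 CPM added in place of 5, and -0.49 and -0.76 by the mean of the cells' own CPM, so that it no longer passed in both libraries. Pdcd1, which both populations had to express, was 1.16-fold and 1.15-fold higher in members.

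Of the 13 measured costimulatory receptors 2 were past 1.5-fold upward and 0 downward, with median log2 ratios of -0.07 and 0.05. Both were receptors of the TNF family. Tnfrsf9 (chr4:150920155-150946104) encodes 4-1BB, which is induced after T cell receptor stimulation. It was at 430 CPM (406 to 454) in WT-labelled members and 134 (125 to 143) in comparison cells. In the library labelled VISTA-KO it was at 379 CPM (359 to 399) and 160 (148 to 173). This was 3.21-fold and 2.37-fold higher. A Tnfrsf9 UMI was found in 54.2% and 47.5% of members against 22.3% and 22.7% of comparison cells, or 34.3% and 29.3% against 13.2% and 13.9% after thinning, with 6.85% and 6% (3.14% and 3.58% thinned) in CD8 cells with Ccr7 and no Pdcd1. Tnfrsf4 (OX40) was 2.50-fold and 1.95-fold higher. Against PD-1 cells without Havcr2 that were not passed through the other gates its log2 ratios went from 1.21 and 0.87 to 0.51 and 0.58, so that it no longer passed in both libraries. Icos and Cd28, both of the CD28 family, stood at log2 ratios of -0.56 and -0.27, and -0.23 and -0.34.

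Of the cytotoxic genes, members held more perforin and less granzyme A. Prf1 (chr10:61297751-61304684), which encodes the pore-forming perforin, was at 356 CPM (335 to 379) against 163 (153 to 174) in the WT-labelled library. In the library labelled VISTA-KO it was at 370 CPM (351 to 391) against 174 (162 to 187). The folds were 2.18 and 2.13. A Prf1 UMI was found in 69.3% and 78.3% of members and 48.5% and 48.3% of comparison cells (36.2% and 41.6% against 25.5% and 26.2% thinned), and in 1 of 145 and 0 of 103 Siglech-expressing cells without Cd3e, which gave 0.690% and an upper limit of 3.52%. The CD8 cells with Ccr7 and no Pdcd1 gave 22.2% and 19.3% (9.03% and 7.66% thinned). Gzma, a granzyme also abundant in early effector cells, was at 107 CPM (95.7 to 120) against 383 (368 to 399) and at 60.9 CPM (53.1 to 69.6) against 141 (130 to 153). Members thus held 3.57-fold and 2.32-fold less. Gzmb, which encodes granzyme B, was at 979 against 1040 CPM in the WT-labelled library and at 2360 against 1600 CPM in the library labelled VISTA-KO, log2 ratios of -0.09 and 0.57. Gzmk and Nkg7 stood within 1.5-fold in both libraries. Prf1 and Gzma were the only 2 of 13 measured granule genes past 1.5-fold in both.

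Genes of secreted chemokines and cytokines differed in both directions. Ccl3 (chr11:83647843-83649378) was at 1050 CPM (1010 to 1080) against 239 (227 to 252) in the WT-labelled library and at 987 CPM (955 to 1020) against 406 (387 to 426) in the library labelled VISTA-KO. Ccl4 (chr11:83648624-83664683) was at 2850 against 1270 CPM and 4530 against 2400 CPM. The folds were 4.38 and 2.43 for Ccl3 and 2.25 and 1.88 for Ccl4. The positions given for these genes overlap, but they come from a gene annotation other than the reference used for counting. Whether an overlap affected the counts was not tested. Csf1, a growth factor of macrophages, was 1.80-fold and 1.90-fold higher, with log2 ratios of 0.75 and 0.84, and of 0.39 and 0.92 without the largest clonotypes. Xcl1, a chemokine that attracts cross-presenting dendritic cells, was 2.77-fold and 1.54-fold higher, but its log2 ratios went from 1.41 and 0.61 to 0.38 and 0.55 against the PD-1 cells not passed through the other gates. Tnf was lower, at 23.9 against 45.2 CPM and 42.3 against 68.6 CPM. Its log2 ratios were -0.80 and -0.64. It did not stay past 1.5-fold in both libraries under 5 alternatives, among them log2 ratios of -0.58 and -0.45 with Havcr2 at 2 or more UMIs and -0.79 and -0.56 without the 2 largest clonotypes. Ifng, which encodes interferon-gamma, was at 331 against 228 CPM and 445 against 404 CPM, below 1.5-fold in both. Together 4 of 9 measured cytokines were higher and 1 lower.

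**Figure D2:**
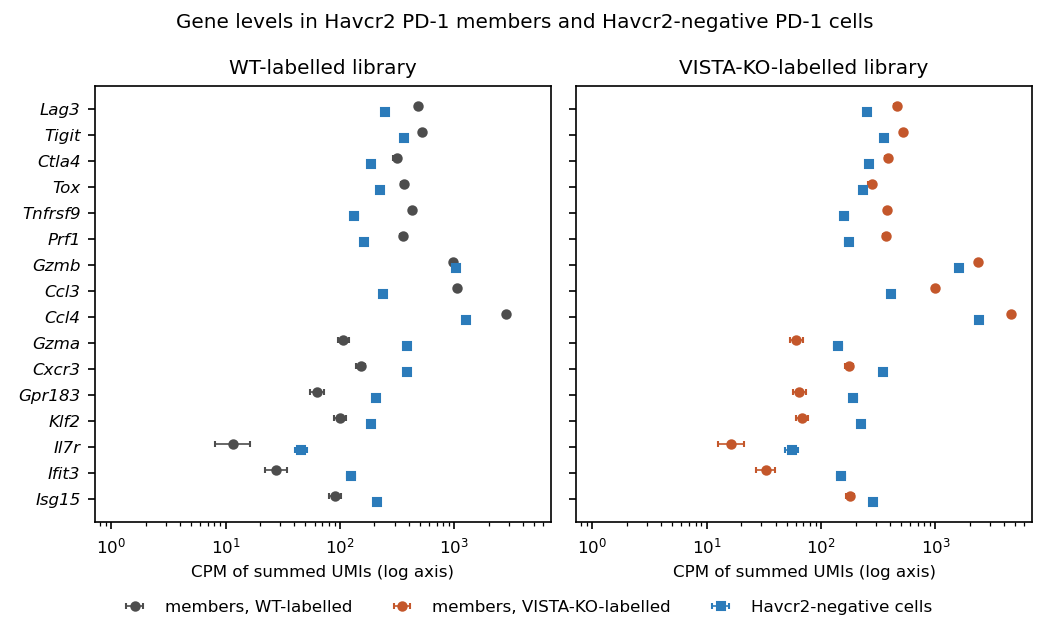
Levels in CPM of summed UMIs, on a log axis, of 16 genes in members (circles) and Havcr2-negative PD-1 cells (squares), with 95% Poisson intervals, 1 panel per library. Lag3, Tnfrsf9, Prf1, Ccl3 and Ccl4 lie to the right in members of both libraries, and Gzma, Cxcr3, Gpr183, Klf2, Il7r, Ifit3 and Isg15 to the left.

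Of 20 measured transcription factors of exhaustion, 1 was higher in members of both libraries and 0 lower, with median log2 ratios of 0.22 and 0.15. Irf8, which acts in several immune lineages, was the one, at 219 against 80.7 CPM and 193 against 125 CPM, and among cells of 4000 to 12000 UMIs it stood at log2 ratios of 1.47 and 0.50. Tox, the factor that programs exhaustion, was at 366 CPM (345 to 389) against 224 (212 to 236) in the WT-labelled library and at 276 CPM (259 to 294) against 234 (219 to 249) in the library labelled VISTA-KO. It was thus 1.64-fold higher in the former and 1.18-fold in the latter, and only the former passed 1.5-fold. The same held for Batf, at 1.54-fold and 1.16-fold, and for Nr4a2, at 2.39-fold and 1.43-fold. Eomes stood at log2 ratios of 0.12 and 0.11, and Prdm1, which encodes Blimp-1, at 0.26 and 0.67.

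Of 12 measured memory and progenitor genes, 6 were lower in members of both libraries and 0 higher, with median log2 ratios of -0.78 and -0.57. Tcf7 was at 0 in both populations by the gate. Il7r, the receptor for the survival cytokine IL-7, was at 11.6 CPM (8.04 to 16.2) against 45.7 (40.4 to 51.4) and at 16.4 CPM (12.5 to 21.2) against 55.4 (48.4 to 63.1). Klf2, a factor that keeps T cells in circulation, was at 101 against 187 CPM and 68.5 against 223 CPM, and S1pr1, its target and the receptor for exit into lymph, was 2.46-fold and 3.90-fold lower, at log2 ratios of -1.05 and -1.42. Slamf6, a marker of the progenitor pool, was 2.22-fold and 1.83-fold lower, at log2 ratios of -0.97 and -0.68, or -0.67 and -0.42 with 20 CPM added, where it no longer passed in both libraries. Klf3, a related repressor, was 3.98-fold and 2.71-fold lower, and Ly6c2, 1.72-fold and 1.55-fold, though the log2 ratios of Ly6c2 went from -0.78 and -0.63 to -0.65 and -0.42 against the PD-1 cells not passed through the other gates.

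Of 17 measured homing and residency genes, 4 were lower in both libraries and 1 higher, with median log2 ratios of -0.33 and -0.28. Cxcr3, the receptor for CXCL9 and CXCL10, was at 152 CPM (139 to 167) against 384 (369 to 400) and at 176 CPM (162 to 190) against 348 (330 to 366). Itgb7, an integrin chain of gut homing, was 2.35-fold and 1.89-fold lower, and Cd69, an early activation and residency antigen, 2.04-fold and 1.73-fold. The integrin chain Itgb1 was 1.56-fold and 2.12-fold lower, with log2 ratios of -0.63 and -1.07, and of -0.52 and -1.13 without the largest clonotypes. Rgs16, a brake on signals from chemokine receptors, was higher at 640 against 257 CPM and 863 against 494 CPM. Outside that list Gpr183, a receptor for oxysterols that guides cells in lymphoid tissue, was at 63.2 against 205 CPM and 64.6 against 192 CPM, 3.25-fold and 2.97-fold lower.

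Of 13 measured genes induced by interferon, 5 were lower in both libraries, 0 were higher, 12 had a negative log2 ratio in both, and the medians were -0.80 and -0.48. Ifit3 was at 27.7 CPM (22.0 to 34.4) against 125 (116 to 135) and at 32.8 CPM (27.2 to 39.3) against 149 (138 to 161), or 4.53-fold and 4.54-fold lower, though its reads are hard to tell from those of the near-identical Ifit3b. Isg15, which encodes a ubiquitin-like protein, was at 91.2 against 210 CPM and 178 against 287 CPM, log2 ratios of -1.16 and -0.67. Without the largest clonotypes these were -0.93 and -0.55, and -0.97 and -0.28 against the PD-1 cells not passed through the other gates. Cxcl10, also induced by interferon but not in that list, codes for a ligand of CXCR3 and was 5.90-fold and 4.63-fold lower. Ifi27l2a stood at log2 ratios of 0.02 and 0.03.

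Few genes of metabolism passed 1.5-fold. Of 15 measured glycolysis genes, 14 had a positive log2 ratio in both libraries, 2 passed 1.5-fold in both (Pgk1 and Tpi1, at 1.63-fold and 1.53-fold and at 1.84-fold and 1.80-fold), 0 were lower, and the medians were 0.43 and 0.41. Their log2 ratios were 0.70 and 0.60, and 0.86 and 0.83. Among cells of 4000 to 12000 UMIs the log2 ratios were 0.39 and 0.47 for Pgk1 and 0.54 and 0.61 for Tpi1, and against the PD-1 cells not passed through the other gates 0.65 and 0.47, and 0.73 and 0.52. Of 18 measured genes of the respiratory chain, 16 were positive in both libraries with medians of 0.16 and 0.18 and 0 passed 1.5-fold. Genes of the T cell receptor complex and its kinases stood at medians of -0.24 and -0.14, immediate-early genes at -0.21 and -0.39, cytokine receptors at -0.02 and -0.18, NK-type receptors at -0.13 and 0.33, survival genes at 0.07 and 0.10 and heat shock genes at 0.12 and -0.00, in each case with 0 genes past 1.5-fold in both libraries. Genes of dividing cells, trimmed by the gate on Mki67 and Top2a, were higher in 2 of 14, with medians of 0.54 and 0.32. These were Cdkn2a, which encodes inhibitors of the cell cycle, at 3.38-fold and 2.16-fold, and the cyclin gene Ccnb2, at 2.13-fold and 2.02-fold. Their log2 ratios were 1.30 and 0.89, and 0.88 and 0.85. Against the PD-1 cells not passed through the other gates Ccnb2 turned to log2 ratios of -0.61 and -0.53, and Cdkn2a stood at 0.84 and 0.40.

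By the smaller of their log2 ratios, the 15 highest genes over the transcriptome were Ltf, Ccl3, H2-Aa, Tnfrsf9, Gm36723, C1qtnf6, Prf1, H2-Ab1, Nrgn, Eno3, Cd74, Pcyt1a, Mt1, Snx9 and Cd200r1. Nrgn, which encodes a calmodulin-binding protein, was at 114 against 24.4 CPM and 103 against 47.1 CPM. Mt1, a metallothionein, was 2.10-fold and 2.07-fold higher, but its log2 ratios, 0.96 in both libraries, were 0.61 and 0.01 against the PD-1 cells not passed through the other gates and 0.38 and 0.85 among cells of 4000 to 12000 UMIs. Several of the others rested on single cells. A single cell held 83.3% of the H2-Aa UMIs of WT-labelled members and another 56.7% of those of VISTA-KO-labelled members, and without the top cell of each population the log2 ratio of H2-Aa was -0.44 and 0.50. H2-Ab1 stood at -0.18 and 0.39 without them, and Cd74 at 0.29 and 0.57, all within 1.5-fold. Of the 58 genes, 48 stayed past 1.5-fold without their top cells, and of the 68 lower genes 66 did. The 15 lowest were Ifit3, Cxcl10, Ifit3b, Gpr183, Il7r, Emb, Rsad2, Ifit1, Ssh2, Ifi208, Slco3a1, Rab37, Gzma, Cpne3 and Klf3.

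Markers of other cells were looked for in the members. The 12 myeloid markers summed to 498 CPM in WT-labelled and 439 in VISTA-KO-labelled members against 267 and 247 in comparison cells. These sums rested largely on single cells. One cell held 913 of the 1459 myeloid UMIs of WT-labelled members, and another 718 of the 1579 of VISTA-KO-labelled members. In comparison cells the top cells held 469 of 1608 and 135 of 1011. Cd74 was the most abundant of the 12 markers, and Adgre1 was at 0 in WT-labelled members. Past 1.5-fold upward were 3 of 4 measured myeloid genes. With 3 or more myeloid UMIs were 37 and 40 members, and 40 of 1156 and 36 of 775 comparison cells. The 7 markers of regulatory T cells summed to 226 and 184 CPM against 114 and 137, led by Tnfrsf4. The 5 markers of plasmacytoid dendritic cells summed to 390 and 416 CPM against 378 and 440, with Irf8 the one past 1.5-fold upward. Melanoma markers summed to 6.83 and 9.18 CPM against 8.31 and 4.64, with Pmel and Tyr at 0 in members. Of the B cell markers, Cd79a and Ms4a1 were at 0 in members and Ighm alone was measured. Gamma-delta T cell markers summed to 40 and 34.2 CPM against 34.4 and 101. Platelet and red cell markers summed to 2.05 and 1.11 CPM, with Hba-a1, Hbb-bs and Ppbp at 0. The part of these transcripts in the differences above was not tested, apart from leaving out the cells with 3 or more myeloid UMIs. Doublet marking took 10 members (2.74%) and 25 members (5.42%), against 3.63% and 5.94% of comparison cells, and 5 and 20 members had 2 or more beta chains.

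Members are described next by their number of Havcr2 UMIs, the count that the gate used and that also varied with depth, so that the values below are a description and support nothing. Of the WT-labelled members 218, 73 and 74 had 1, 2 and 3 or more Havcr2 UMIs, and of the VISTA-KO-labelled members 238, 113 and 110. Median depths were 6491.5, 7517 and 9143.5 UMIs, and 6136, 7281 and 8093.5 UMIs. Ccl3 was at 239 CPM in WT-labelled cells with 0 Havcr2 UMIs and at 576, 1230 and 1850 CPM with 1, 2 and 3 or more, and in the library labelled VISTA-KO at 406, 650, 1100 and 1450 CPM. Prf1 was at 163, 261, 296 and 591 CPM and at 174, 280, 339 and 552 CPM. Tnfrsf9 was at 134, 274, 541 and 659 CPM and at 160, 344, 321 and 491 CPM. Lag3 was at 247, 432, 570 and 527 CPM and at 253, 374, 542 and 523 CPM. Gpr183 was at 205, 86.3, 36.2 and 37.1 CPM and at 192, 81.2, 70.4 and 31.2 CPM. Ifit3 was at 125 and 33.9 CPM in the WT-labelled classes with 0 and 1 and at 149 and 29.8 CPM in the VISTA-KO-labelled ones, and with more it stood at 17.2 and 23.0 CPM and at 32.5 and 38.2 CPM. Gzmb was at 1600, 1830, 2390 and 3250 CPM in the library labelled VISTA-KO and at 1040, 975, 668 and 1220 CPM in the WT-labelled library. Tox was at 224, 354, 422 and 349 CPM and 234, 292, 238 and 285 CPM.

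**Figure D3:**
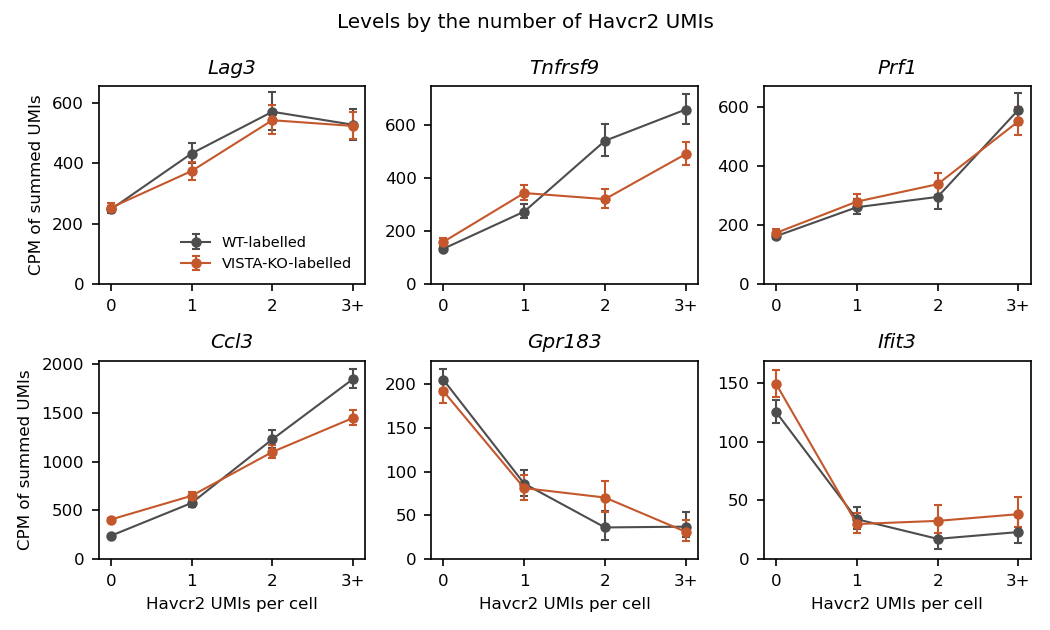
Levels in CPM of summed UMIs of 6 genes in PD-1 CD8 cells with 0, 1, 2 and 3 or more Havcr2 UMIs, in both libraries, with 95% Poisson intervals; cells with 0 are the comparison cells. The classes are cut from the count that the gate used, and median depth grows with them, from 6491.5 to 9143.5 UMIs over the classes of WT-labelled members. Ccl3 runs from 239 to 1850 CPM in the WT-labelled library, and Gpr183 from 205 to 37.1 CPM.

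The receptor sequences gave a readout that the gates had not used. A clonotype was found in 299 of 365 WT-labelled and 405 of 461 VISTA-KO-labelled members. Cells of clonotypes with 3 or more CD8 cells made up 92% (88.3 to 94.8) of the WT-labelled members and 85.7% (81.9 to 88.9) of the VISTA-KO-labelled members with a clonotype. Among comparison cells the shares were 88.2% (86.0 to 90.1) and 65.8% (62 to 69.5), and among Tcf7-expressing PD-1 cells 72.5% (68.0 to 76.6) and 32.2% (26.8 to 37.9). Over all CD8 cells they were 74.7% and 54.1%. By this share the intervals of members and comparison cells were apart in the library labelled VISTA-KO and overlapped in the WT-labelled library. The largest clonotype of each population, which need not be the same one, held 24.7% of WT-labelled members, 38.2% of comparison cells and 42.7% of Tcf7 cells, and in the library labelled VISTA-KO 19.8%, 13.3% and 2.08%, the opposite order. In clonotypes of 10 or more CD8 cells were 81.9% and 65.9% of the members. Drawn down to 280 cells, members held an expected 74.1 WT-labelled and 104 VISTA-KO-labelled clonotypes, comparison cells 87.3 and 172, and Tcf7 cells 126 and 251.

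Member clonotypes were also looked for among the PD-1 cells without Havcr2. Of 77 WT-labelled member clonotypes, 46 (59.7%) also had comparison cells, which was 22.9% of the comparison cells' clonotypes, and 24 (31.2%) had Tcf7 cells, 13.0% of theirs. Of 136 VISTA-KO-labelled member clonotypes, 63 (46.3%) had comparison cells, 19.0% of theirs, and 26 (19.1%) had Tcf7 cells, 10.1% of theirs.

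The share of members differed widely from clonotype to clonotype. WT clonotype 3 was the largest CD8 clonotype of its library with 1006 cells, and 15 of them were members (1.49%, 0.837 to 2.45), while 371 were comparison cells and 189 Tcf7 cells. In WT clonotype 1, 74 of 312 cells were members (23.7%, 19.1 to 28.8), and in WT clonotype 2, 18 of 46 (39.1%, 25.1 to 54.6). In VISTA-KO clonotypes 1, 2 and 3 the shares were 28.1% of 285 cells (22.9 to 33.7), 44.9% of 147 (36.7 to 53.3) and 40% of 60 (27.6 to 53.5). Members were therefore not in proportion to clone size. Over the 54 WT-labelled and 38 VISTA-KO-labelled clonotypes of 10 or more CD8 cells, the median share was 8.33% and 9.16%, the highest 56.2% and 48.8%, 21 and 12 clonotypes had 0 members, and 15 and 14 had 20% or more. Median depths of the clonotypes' cells differed as well, from 4691 UMIs in WT clonotype 3 and 5265 in WT clonotype 1 to 8773.5 in WT clonotype 2 and 11104.5 in VISTA-KO clonotype 3.

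**Figure D4:**
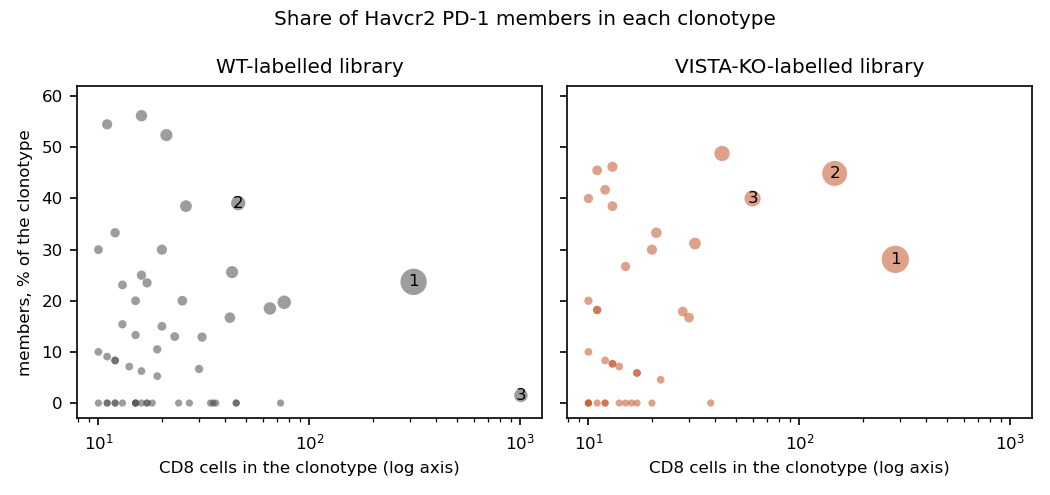
Members as a percentage of each clonotype against its number of CD8 cells (log axis), for clonotypes of 10 or more CD8 cells, 1 panel per library; the area of a point grows with its members, and 1, 2 and 3 mark the clonotypes whose junctions are shown. WT clonotype 3, at 1006 cells, lies at 1.49%, and VISTA-KO clonotype 2, at 147 cells, at 44.9%.

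Because clones differed in their share of members, members and comparison cells drew on different mixtures of clones. In 8 clonotypes with at least 10 members and 10 comparison cells (5 WT-labelled, 3 VISTA-KO-labelled), both populations could be set side by side within a clone. Tnfrsf9 was higher in members in 8 of the 8, at log2 ratios from 0.21 to 2.21 with a median of 0.50. Prf1 was higher in 7 (-0.06 to 1.72) and Lag3 and Ccl4 in 6 each, and Cxcr3 was lower in 7 (-3.35 to 0.13). Ccl3 was higher in 4 of 8, with a median of 0.55, and Tox in 4, with a median of 0.00. Pdcd1 was lower in 6. Some genes that were higher or lower over all comparison cells did not keep that direction within clones. Slamf6 was higher in members in 5 clonotypes and lower in 2, with a median log2 ratio of 0.70, and S1pr1 was higher in 4 and lower in 2. Tnfrsf4 was higher in 4 and lower in 4, with a median of -0.03, and so was Cd244a, with a median of -0.10. Clones have few cells, and these counts carry no test.

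Weighting the comparison cells to the clones of the members in these clonotypes (134 WT-labelled and 170 VISTA-KO-labelled members) reduced most differences. Lag3 went from a log2 ratio of 1.14 against all comparison cells to 0.28 against the same clones in the WT-labelled library, and from 0.81 to 0.47 in the library labelled VISTA-KO. Tnfrsf9 went from 1.5 to 0.67 and from 0.99 to 0.76, and Prf1 from 0.62 to 0.51 and from 1.20 to 0.90. These kept their direction in both libraries. Tigit went from 0.52 to 0.04 and from 0.72 to 0.18, Ctla4 from 0.86 to 0.19 and from 0.74 to 0.15, and Tox from 0.77 to 0.08 and from 0.16 to -0.11. Klf2 went from -1.02 to -0.22 and from -2.86 to 0.14, Il7r from -2.14 to -0.99 and from -3.06 to 0.32, and Gzma from -2.23 to -0.41 and from -2.81 to -1.12. Il7r was then at 2.26 CPM in VISTA-KO-labelled members and 0.824 in the weighted comparison cells, so that its ratio there rests on very few UMIs. Of the interferon-induced genes, Ifit1 went from -1.79 to -1.01 and from -1.52 to -1.71, Ifit3 from -2.02 to -0.64 and from -2.10 to -1.76, Isg15 from -1.30 to -0.43 and from -0.85 to -1.11, and Irf7 from -0.93 to -0.37 and from -0.38 to 0.05. Of 27 named genes past 1.5-fold upward, 21 WT-labelled and 26 VISTA-KO-labelled ratios kept their direction, 12 and 13 were still past 1.5-fold, and the median went from 1.11 to 0.51 and from 0.89 to 0.58. Of 28 downward, 27 and 20 kept their direction and 13 and 13 were still past 1.5-fold, with medians from -1.37 to -0.54 and from -1.50 to -0.45.

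**Figure D5:**
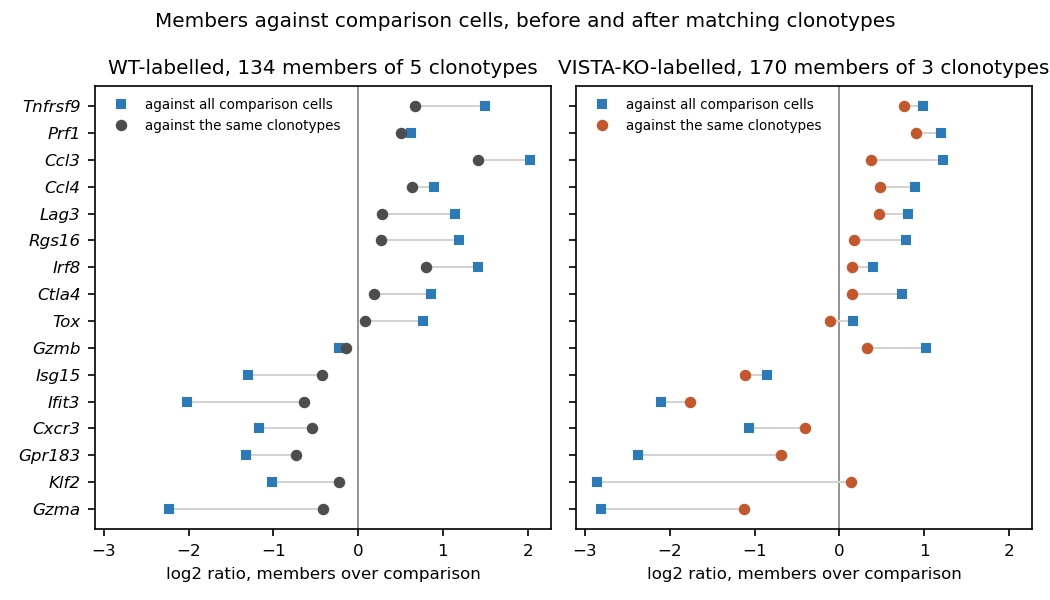
Log2 ratios of members over comparison cells for 16 genes, against all comparison cells (squares) and against comparison cells weighted to the members' clonotypes (circles), for 134 WT-labelled and 170 VISTA-KO-labelled members of 5 and 3 clonotypes. Most circles lie nearer to 0 than their squares; Prf1 and Tnfrsf9 keep ratios of 0.51 to 0.90, and Klf2 goes from -2.86 to 0.14 in the library labelled VISTA-KO.

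Between the genotypes, 5872 genes reached 20 CPM in members of either library. Of these 82 (1.40%) were at least 1.5-fold higher in VISTA-KO-labelled members and 65 (1.11%) at least 1.5-fold lower, which compares 2 libraries and not 2 conditions. Without the top cell of each gene 74 and 54 remained. Havcr2, which the gate fixed at 1 UMI or more in every member, stood at 225 and 262 CPM. Lag3, which no gate used, stood at 485 and 458 CPM, within 1.5-fold. The median log2 ratio of VISTA-KO-labelled to WT-labelled members was 0.02 over 14 measured inhibitory receptors, 0.45 over 13 interferon-induced genes and 0.37 over 15 immediate-early genes. In the list of inhibitory receptors the genes past 1.5-fold were Entpd1 upward, at 83.7 and 135 CPM, and Cd200 downward. The 3 interferon-induced genes past it were Isg15, at 91.2 and 178 CPM, Irf7 and Usp18, and the 4 immediate-early genes were Dusp5, Nfkbid, Rgcc and Tagap, all upward.

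Gzmb was the clearest of the effector genes, at 979 CPM (944 to 1020) in WT-labelled and 2360 (2310 to 2420) in VISTA-KO-labelled members, 2.41-fold higher. By clone it was at 725 and 1020 CPM in WT clonotypes 1 and 2 and 1090 in the other WT clonotypes, and at 3660 and 4060 CPM in VISTA-KO clonotypes 1 and 2 and 1730 in the others. The log2 ratio was 1.27 over all members and 0.81 without the 2 largest CD8 clonotypes of each library. It was 0.61 in comparison cells, so the gap was not confined to the members. Gzmk was 1.52-fold higher, Ccl4 1.59-fold and Gzma lower, at 107 and 60.9 CPM. Klrg1, a marker of short-lived effector cells, went from 0.78 to -0.32 without the 2 largest clonotypes, and its UMIs lay mainly in VISTA-KO clonotypes 1 and 2, at 114 and 183 CPM against 34.2 in the others.

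Nr4a1, an orphan nuclear receptor induced by T cell receptor signals, was at 85.1 CPM (74.8 to 96.3) in WT-labelled and 224 (209 to 240) in VISTA-KO-labelled members. It was higher in each clone class of the library labelled VISTA-KO. Its level was 83.4, 80.0 and 86.7 CPM in WT clonotypes 1, 2 and the others, and 150, 167 and 256 CPM in VISTA-KO clonotypes 1, 2 and the others. Nr4a3 was at 35.2 and 101 CPM. In comparison cells the log2 ratios were 1.53 for Nr4a1 and 1.10 for Nr4a3, beside 1.34 and 1.40 in members. The gap was thus of like size in cells without Havcr2, and pool and genotype cannot be told apart.

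Of the 10 highest genes, Ifitm3, Lyz2, Nr4a3, Gbp10, Nr4a1, Areg, Osgin1, Gzmb, Oas1a and Gm21887, several rested on few cells. A single cell held 60% of the Ifitm3 UMIs of VISTA-KO-labelled members, another 61.5% of the Lyz2 UMIs and another 46.5% of the Areg UMIs. Of the 10 lowest, Il2, Gm42031, 5830405F06Rik, Il1r2, Penk, Gm46620, Actn1, Cdk5rap1, Ckb and Gm43305, a single cell held 95.8% of the Il2 UMIs and another 63.8% of the Il1r2 UMIs of WT-labelled members. For 5830405F06Rik, 90 of 117 UMIs lay in WT clonotype 1, and its log2 ratio went from -2.34 to -0.64 without the 2 largest CD8 clonotypes. Gm42031 was lower in the library labelled VISTA-KO, at 77.2 and 11.1 CPM in members and at -2.02 on the log2 scale in comparison cells. Members of WT clonotype 2 held only 1 UMI of it, at 6.67 CPM. Itga4, the alpha chain of the integrin VLA-4, was at 359 and 207 CPM, and the chemokine receptor gene Ccr2 at 88.8 and 173 CPM.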

How the data were processed

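The authors ran Cell Ranger 5.0.0 with its 2020-A mouse reference (mouse_mm10-2020-A) for expression and its GRCm38 receptor reference. The deposited tables hold UMI counts for each gene in each barcode, as whole numbers without normalization, and UMI counts for each receptor contig. Seurat 4 is named in the submitters' processing notes, and none of its values were used. Sample descriptions name a 5′ kit and the extraction text a 3′ kit with feature barcodes, whereas the methods name a receptor profiling kit.

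UMIs were summed per library and population, scaled to CPM and compared as log2(CPM + 5) among genes of at least 20 CPM. A gene was called at 1.5-fold or more, against comparison cells in both libraries. With 1 library per genotype there were no p-values. Intervals (95%) are exact, by Poisson for levels and by Clopper-Pearson for shares. Shares of cells with a UMI were also taken after thinning to 2000 UMIs. Siglech-expressing cells had at least 3 Siglech UMIs. Doublets were kept, and were marked by Scrublet scores above percentile 92 of a library or 2 or more productive beta chains for an alternative.

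Named genes were the hand-written lists of receptors, transcription factors, memory, cytotoxic and cytokine genes, the 15 highest and 15 lowest against comparison cells and the 10 highest and 10 lowest between genotypes. Genes of the gates, receptor segments, mitochondrial and sex-linked genes were left out of rankings. Members and lists were chosen with earlier results of these data known. Matching by clonotype was chosen after seeing the data, in clonotypes with at least 10 members and 10 comparison cells, and so were the single genes named from other lists. The calls of members against comparison cells were tested on simulated Poisson counts, and the binomial interval on simulated shares. The simulated counts had no single cells that held most UMIs of a gene. The calls between genotypes, the gates and the clonotype matching were not tested in this way. Python 3.11.15, numpy 2.4.6, scipy 1.17.1, pandas 2.3.3, scanpy 1.11.5 and matplotlib 3.10.9 were used.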

Additional observations from a re-analysis of the deposited data

Results flagged for a closer look

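Of 259 named genes compared, Ifitm3, which encodes an interferon-induced membrane protein, was the 1 flagged for passing 1.5-fold in opposite directions in the libraries. Its log2 ratio of members over comparison cells was -1.68 in the WT-labelled library (4.78 against 26.2 CPM, 14 UMIs in members) and 0.89 in the library labelled VISTA-KO (52.9 against 26.1 CPM, 190 UMIs in members). A single VISTA-KO-labelled member held 114 of the 190 UMIs, and without the top cells the ratios were -1.60 and -0.01. The difference was not tested. Il2, which was not flagged or called against comparison cells, also had opposite log2 ratios, 2.46 in the WT-labelled library and -2.22 in the library labelled VISTA-KO. A single cell held most of its UMIs in WT-labelled members.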

How the results depend on the processing

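Of 94 alternative values of the 8 main shares and counts, 63 stayed within their interval or within 1.5 times. Some alternatives hardly changed the cells, so that their agreement says little. A limit of 10% mitochondrial UMIs kept 365 and 461 members, as reported. A minimum of 2 UMIs of Cd8a and Cd8b1 together kept 364 and 458. Of 2555 alternative values of 163 single gene ratios, 28 reversed, in 8 genes. The cause was not tested. With cells of 4000 to 12000 UMIs alone, the shares of CD8 cells were 9.24% and 13.9% (WT-labelled and VISTA-KO-labelled, as throughout), 36 genes were higher in members and 101 lower in VISTA-KO-labelled members. With Havcr2 at 2 or more UMIs the shares were 2.90% and 5.46%, with 95 genes higher and 110 lower in members and 150 higher and 217 lower between genotypes. Without the largest CD8 clonotype of each library the shares were 8.62% and 10.0%. Without the 2 largest, chosen after seeing the data, the VISTA-KO-labelled share was 8.63% and its share of members in clonotypes of 3 or more CD8 cells was 77.6%. With gates set after thinning to 3000 UMIs, also chosen after seeing the data, the shares were 5.33% and 8.01%.

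In the same order of counts (higher and lower in members, higher and lower between genotypes), a pseudocount of 20 CPM gave 25, 38, 40 and 26 genes, a minimum of 50 CPM gave 35, 38, 44 and 19, and a minimum of 5 CPM gave 88, 107, 190 and 160. Without ribosomal, mitochondrial and receptor genes in the CPM, 109 genes were lower in VISTA-KO-labelled members, and by the mean of the cells' own CPM 100 were. With comparison cells freed of the other gates, 122 were lower in members. Of the 55 named genes past 1.5-fold in both libraries, 13 no longer passed with comparison cells freed of the other gates, 10 with a pseudocount of 20 CPM, 8 with cells of 4000 to 12000 UMIs, 8 without the 2 largest clonotypes, 7 by the cells' own CPM, 6 without the largest clonotype, 4 with Havcr2 at 2 or more UMIs, 4 without cells of 3 or more myeloid UMIs and 3 without each gene's top cell.

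Reversed ratios lay mainly in MHC class II genes. With cells of 4000 to 12000 UMIs the log2 ratios of members over comparison cells were -0.02 and -0.80 for Cd74, -0.34 and -0.34 for H2-Aa, -0.18 for VISTA-KO-labelled H2-Ab1 and -0.25 for WT-labelled Ccnb2, and H2-Ab1 between genotypes was 1.01. With Havcr2 at 2 or more UMIs, WT-labelled H2-Aa was -0.27 and H2-Ab1 -0.17, and between genotypes C1qb was -0.69 and H2-Ab1 0.10. Without the 2 largest clonotypes, WT-labelled Cd74 was -0.52, H2-Aa -1.30 and H2-Ab1 -1.10, and between genotypes H2-Ab1 was 1.53 and Klrg1 -0.32. Without each gene's top cell, WT-labelled H2-Aa was -0.44 and H2-Ab1 -0.18, and H2-Ab1 between genotypes 0.40. Without cells of 3 or more myeloid UMIs, H2-Ab1 was -0.07 and -0.23, WT-labelled H2-Aa -0.06 and VISTA-KO-labelled Cd74 -0.17, and between genotypes C1qb was -0.39, Fcer1g -0.19 and Lyz2 -0.12. With comparison cells freed of the other gates, Ccnb2 was -0.61 and -0.53. The precision of low genes is limited by depth, since the members held 2927412 and 3593704 UMIs in all. No paired analysis was possible because each genotype had 1 library.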
